A study of Mus musculus with 6 samples.

Results

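The expression of 35 genes of the integrated stress response and the unfolded protein response was followed in bulk RNA sequencing of an immortalized brown fat line before and during its differentiation from preadipocytes to adipocytes. The genes were taken by symbol from a list of integrated stress response genes, serine and one-carbon enzymes and endoplasmic reticulum (ER) chaperones, and all 35 were among the 26264 gene symbols that each count table lists. The cells came from the stromal vascular fraction of interscapular brown fat (iBAT) of wild-type Bl6N mice and had been immortalized with the SV40 large T antigen, a viral oncoprotein that keeps cells dividing. The cells were left untreated or were given 5.5 nM recombinant FGF8, a paracrine fibroblast growth factor, for 48 h, and both arms then went through the same hormone-driven differentiation without FGF8. RNA was taken at the end of the pretreatment (day 0, labelled preadipocytes D0), on day 3 (labelled adipocytes D3) and on day 9 (labelled adipocytes D7). The study describes day 9 as 2 days of induction and 7 days of differentiation medium, while its general methods give 6 days of differentiation. The label itself does not name day 9, and D7 was taken as day 9 because it is the last time point. Each of the 6 combinations of treatment and day is 1 library, so no difference between 2 libraries has a replicate check. The growth text filed with the samples speaks of primary white preadipocytes and its treatment text of several FGFs, whereas titles, tissue and series text give immortalized brown cells with or without FGF8, the names used here, and the series text calls the untreated cells vehicle controls. The 6 libraries hold 16403254 to 38551551 counts.

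In the integrated stress response several kinases phosphorylate the translation factor eIF2 when amino acids run short, when unfolded proteins build up in the ER, when mitochondria are impaired or when viral RNA or heme loss is sensed. General translation then falls while the mRNA of the transcription factor ATF4 is translated better, and ATF4, often paired with a C/EBP protein, switches on genes for amino acid uptake and synthesis, tRNA charging, one-carbon metabolism and feedback on the response itself. The unfolded protein response has besides the ATF4 branch a pair of others, through IRE1 (gene Ern1) with its target XBP1 and through ATF6, which are best known for raising ER chaperones and the machinery that degrades misfolded proteins. Abundance of an mRNA does not report translation or phosphorylation, neither of which was measured here.

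Because the ATF4 branch and the chaperone branches are known for different promoter elements, the promoters of the genes were searched for them. The matched stretches are shown for 6 of the genes, namely Asns, Atf3, Chac1 and Trib3, which had the largest day 0 differences among the genes with the first element, Herpud1, which holds both kinds of element, and Hspa5, the main ER chaperone. RefSeq promoter sequences (GRCm38.p6, 250 bases before to 50 bases after a start) were given for 32 of the 35 genes, and those of Aldh1l2, Cth and Eif4ebp1 were not used here. The C/EBP-ATF response element (TGATGNAA, on either strand) was present in the promoters of 8 of the 32 genes, Asns, Atf3, Chac1, Herpud1, Nupr1, Pck2, Trib3 and Vldlr, and in 3.97% of all 32851 RefSeq promoters. The ER stress response element (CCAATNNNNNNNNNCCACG, either strand) was present in Hspa5 and Hsp90b1 and in 0.119% of all promoters, and its second form (ATTGGNCCACG) in Herpud1 and in 0.0365% of them. The XBP1 element (TGACGTGG) was found in none of the 32 genes and in 0.676% of all promoters, which says only that these letters are absent from these windows. Each sequence below is on the strand of its gene, 5′ to 3′, with the matched letters in capitals, and its coordinates are those of GRCm38.p6. Positions count from 1 at the start, with negative numbers before it. The match lies at -23 to -16 in Asns (chr6:7693210-7693252, minus strand), -110 to -103 in Atf3 (chr1:191183416-191183463, minus), -193 to -186 in Chac1 (chr2:119351029-119351076, plus), 15 to 22 in Trib3 (chr2:152344028-152344057, minus) and -65 to -47 in Hspa5 (chr2:34772005-34772063, plus), while Herpud1 (chr8:94386297-94386407, plus) has a C/EBP-ATF match at -112 to -105 and the second ER stress element at -52 to -42.
Asns: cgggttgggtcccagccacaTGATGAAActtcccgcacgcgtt
Atf3: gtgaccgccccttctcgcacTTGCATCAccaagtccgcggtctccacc
Chac1: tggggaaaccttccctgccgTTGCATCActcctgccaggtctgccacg
Trib3: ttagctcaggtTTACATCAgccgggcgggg
Herpud1: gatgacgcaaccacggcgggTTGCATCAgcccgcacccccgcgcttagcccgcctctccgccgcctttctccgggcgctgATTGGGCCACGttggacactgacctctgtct
Hspa5: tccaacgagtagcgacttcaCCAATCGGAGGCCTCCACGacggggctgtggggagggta
In Atf3, Chac1 and Herpud1 the match reads TTGCATCA along the gene and in Trib3 it reads TTACATCA, the reverse complement of the element as written above, whereas in Asns it stands in the forward direction. A match describes letters and is neither a binding site nor a cause.

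Counts were divided by size factors (normalized counts). Fold changes are given as differences in log2(normalized count + 1) between 2 libraries, and the range in brackets after one is its 95% exact binomial (Clopper-Pearson) interval, which covers counting error only and not the variation between cultures. The libraries differ by more than treatment and time. Xist, the RNA of the inactive X chromosome, had 2530 (untreated) and 5837 (FGF8) counts at day 0 and 7 to 26 in the 4 later libraries, while the Y-linked Ddx3y had 1707 to 4907 counts in all 6, so the cells of day 0 differ from those of the later days in this too, and that difference and the day cannot be told apart. Within day 0 Xist was at 3716 normalized counts in untreated and 7473 in FGF8-treated cells. The 2 libraries compared at day 0 thus differ in Xist as well as in treatment. Adipoq, the adipocyte hormone, had at most 1 count at day 0 and 16715 to 47351 later, and Ucp1 had 0 counts without and 1037 with FGF8 at day 0. Adipocyte markers were higher with FGF8 in 10 of 10 cases at day 3 (median 0.83, 382877 against 668891 normalized counts in sum), and of 6 proliferation markers none reached 2-fold on any day. Stromal markers were 2-fold lower in 5 of 8 at day 0 and in 8 of 8 at day 3 and day 9, and summed to 324038 to 532836 normalized counts in untreated and 116097 to 163386 in FGF8-treated cells, with none at 0. The 10 leukocyte markers summed to 139 to 313 normalized counts, of which Adgre1, C1qa and C1qb were at 0 in all 6 libraries, and of the 6 endothelial markers, which summed to 35.1 to 1630.4, Kdr had 877 counts without FGF8 at day 0 and 6 with it, while Pecam1 had at most 17. In bulk samples fewer cells of a type and less RNA per cell cannot be told apart, and the part of these shifts in the values below was not tested. Exons of 8 of the 35 genes (Aldh1l2, Atf5, Ddit3, Hspa5, Ppp1r15a, Psph, Shmt2 and Xbp1) overlap a protein-coding gene on the other strand, and since the strand setting of the counting is not given in the sources used here, their counts may hold reads of that gene.

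A gene counted as higher or lower where it differed by 2-fold or more and the 2 libraries averaged 20 normalized counts or more, a filter all 35 genes passed on each of the 3 days. At day 0, right after the pretreatment, 27 of the 35 genes were higher in FGF8-treated cells by this rule and 1, Sdf2l1, was lower, against 7.27% of the 12657 genes tested higher and 10.8% lower. The median log2 fold change of the 35 genes was 1.96, and that of all genes was 0.05. At day 3, 1 gene (Trib3) was 2-fold higher and 0 were lower (all genes 3.8% and 12.1%), with a median of 0.46 against 0.08. At day 9, 0 were 2-fold higher and 1 (Cbs) was lower (all genes 1.12% and 8.74%), with a median of 0.33 against 0.08. Scaling with TMM brought 3 genes that lie just under 2-fold, Shmt2, Chac1 and Trib3, over the line at day 9. Scaling to total counts moved the day 3 median of all genes from 0.08 to -0.03 and that of the 35 genes from 0.46 to 0.36. All 27 genes that were 2-fold higher at day 0 had smaller fold changes on both later days. They were picked for a high day 0 value in single libraries, so smaller later values are partly built in, and the share of all genes 2-fold higher fell too. Of the 35 genes, 22 were above 0 on all 3 days, which was not counted over all genes. Day by day 30, 24 and 25 of the 35 were above 0, against 6849 of 12657, 7154 of 12892 and 7740 of 13070 of all genes tested. The day 0 group included 16 genes at 4-fold or more, of 250 such genes among all tested.

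**Figure D1:**
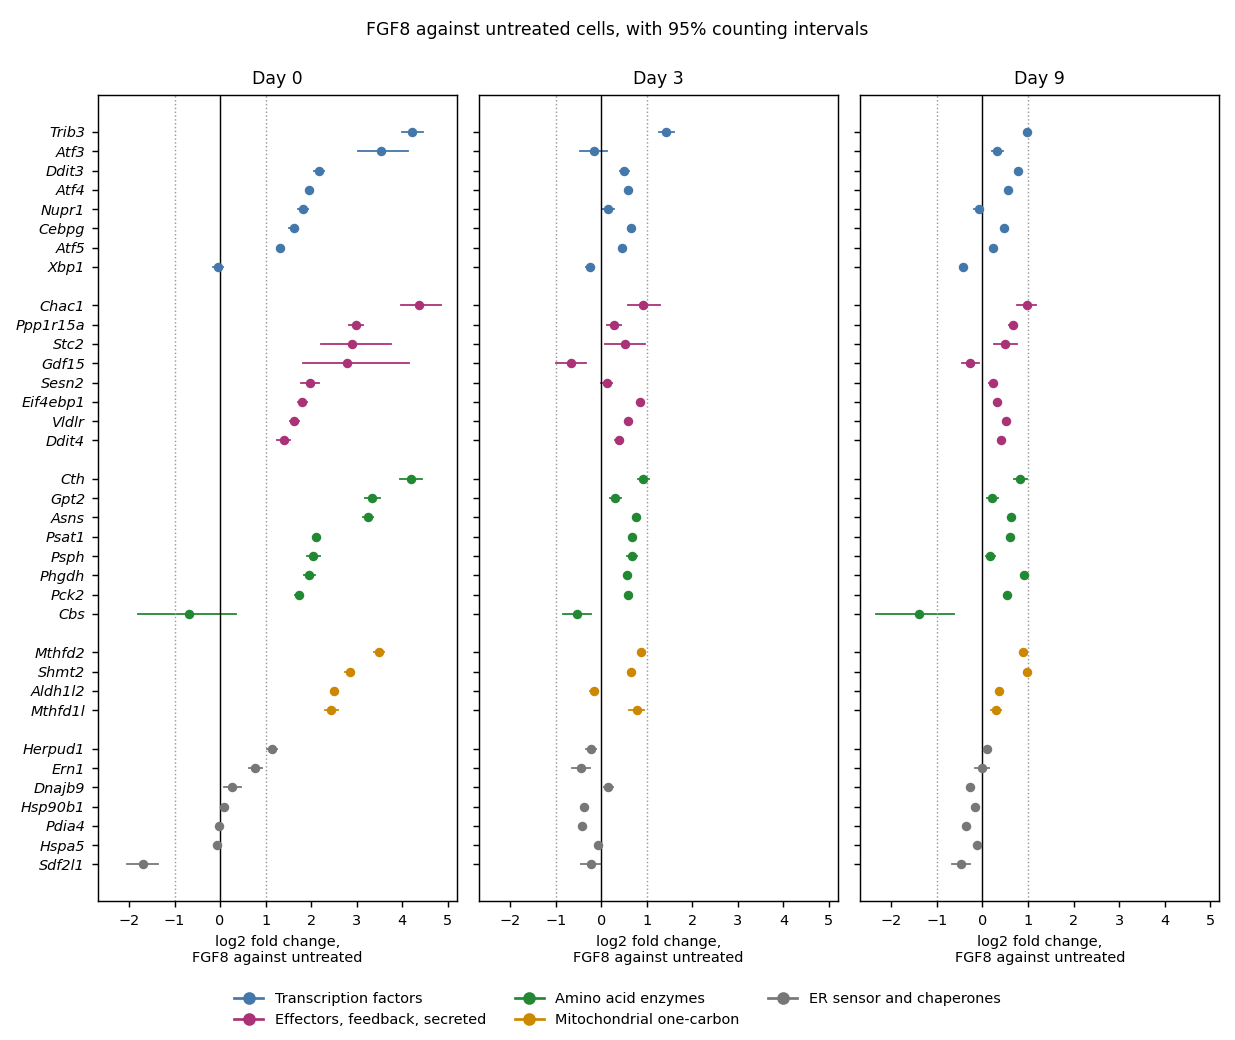
log2 fold change of each of the 35 genes, FGF8 against untreated, at day 0, 3 and 9 (horizontal axis), with genes grouped by role; points are the fold changes, bars the 95% counting intervals, and dotted lines mark 2-fold. At day 0 the points of 26 of the 28 genes outside the ER group lie to the right of the upper dotted line, with Chac1 highest at 4.37, whereas 1 gene at day 3 and none at day 9 does.

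The transcription factors of the response were 2-fold higher at day 0 in 7 of 8 cases, with a median log2 fold change of 1.88. Levels below are given in the order day 0, day 3, day 9. Atf4 itself (chr15:80139372-80141745, GRCm39) stood at 4932, 7042 and 10032 normalized counts in untreated cells and at 18958, 10602 and 14919 in FGF8-treated cells. The 2 libraries of day 0 are thus the lowest and the highest of the 6, and the log2 fold change was 1.94 (1.89 to 2.00) at day 0, 0.59 (0.55 to 0.63) at day 3 and 0.57 (0.54 to 0.60) at day 9. Ddit3 (chr10:127124268-127132163), which encodes CHOP, a factor known for its part in prolonged stress and cell death, was at 1253, 1490.4 and 4037 normalized counts without and 5623, 2122 and 6906 with FGF8. Its log2 fold change was 2.17 (2.06 to 2.27) at day 0 and 0.51 and 0.77 later, and in both arms its level at day 9 was above that at day 3.

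Trib3 (chr2:152179337-152191958), a pseudokinase that is induced by ATF4 and CHOP and holds them back, was measured at 248, 498 and 2360.2 normalized counts in untreated and 4613, 1345 and 4625 in FGF8-treated cells. It was 18.5-fold higher at day 0 (log2 4.21, 3.99 to 4.45), and it was the 1 gene past 2-fold at day 3 (log2 1.43, 1.28 to 1.59), with log2 0.97 (0.91 to 1.03) at day 9. The FGF8 library of day 0 and that of day 9 held Trib3 at almost the same level, while that of day 3 was lower. Atf3 (chr1:190902493-190950241), an immediate stress factor, was at 47.0, 197 and 696 normalized counts without FGF8 and 552, 175 and 874 with it. Its 11.5-fold higher level at day 0 (log2 3.53, 3.03 to 4.12) was followed by log2 -0.17 (-0.46 to 0.13) at day 3, an interval that spans 0, and by 0.33 at day 9. Both day 9 libraries held more Atf3 than the FGF8 library of day 0.

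Atf5, a relative of ATF4 that is translated under the same control, was at 2869, 10268 and 12689.7 normalized counts in untreated and 7167, 14156 and 14809 in FGF8-treated cells, log2 fold changes of 1.32, 0.46 and 0.22. Cebpg, a C/EBP protein that pairs with ATF4, was at 1727, 2361 and 3190.0 normalized counts in untreated and 5291, 3724 and 4424 in FGF8-treated cells, log2 fold changes of 1.61, 0.66 and 0.47. Both had their lowest level in the untreated library of day 0, but Atf5 was at its highest on day 9 and Cebpg on day 0 with FGF8. Nupr1, a small stress-induced chromatin protein, was at 1144, 859 and 1349 normalized counts without FGF8 and 4051, 957 and 1273 with it. Its difference was 2-fold or more at day 0 (log2 1.82, 1.71 to 1.94), with log2 0.16 (0.02 to 0.29) at day 3 and -0.08 (-0.18 to 0.01) at day 9. Xbp1, the transcription factor of the IRE1 branch, was at 2162, 2595 and 3062 normalized counts in untreated and 2094, 2190.0 and 2288 in FGF8-treated cells. It was the exception of this group, with a log2 fold change of -0.05 (-0.15 to 0.06) at day 0, -0.24 (-0.33 to -0.16) at day 3 and -0.42 (-0.49 to -0.35) at day 9, and gene counts do not tell its spliced from its unspliced mRNA.

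All 8 effectors, feedback and secreted factors passed 2-fold at day 0, with a median of 2.38. Chac1 (chr2:119180757-119184866), an enzyme that degrades glutathione, was at 69.0, 111 and 210.1 normalized counts in untreated and 1449, 211 and 413 in FGF8-treated cells. This was the largest fold change of the 35 genes at day 0, 20.7-fold (log2 4.37, 3.97 to 4.84), and Chac1 stayed just under 2-fold later, at log2 0.92 (0.58 to 1.29) and 0.97 (0.77 to 1.19). Ppp1r15a, which encodes GADD34, the phosphatase subunit that ends the response by removing phosphate from eIF2, was at 567, 718 and 1657 normalized counts without and 4468, 872 and 2626 with FGF8. Its log2 fold change was 2.98 (2.83 to 3.13) at day 0, 0.28 at day 3 and 0.66 at day 9, so that the level at day 0 with FGF8 was above that of both day 9 libraries.

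Sesn2, a leucine sensor that restrains mTORC1, was at 349.6, 1209 and 1201 normalized counts in untreated and 1369.8, 1312 and 1411 in FGF8-treated cells, log2 fold changes of 1.97, 0.12 and 0.23. Ddit4, or REDD1, another inhibitor of mTORC1, was at 715, 1615 and 5138 normalized counts in untreated and 1882, 2112 and 6780.0 in FGF8-treated cells, log2 fold changes of 1.39, 0.39 and 0.40. Eif4ebp1, the translation repressor 4E-BP1, was at 1325, 3408 and 4364 normalized counts in untreated and 4638, 6119 and 5456 in FGF8-treated cells, log2 fold changes of 1.81, 0.84 and 0.32. For Sesn2 5 of the 6 libraries lay close together and the untreated library of day 0 stood apart below them, while Ddit4 was higher on each later day in both arms. Vldlr, a lipoprotein receptor, was at 1667, 4039.6 and 6653 normalized counts without FGF8 and 5169.5, 6065 and 9551 with it, log2 fold changes of 1.63, 0.59 and 0.52. Stc2, a secreted glycoprotein, was at 25.0, 78.9 and 180.3 normalized counts in untreated and 192, 113 and 256 in FGF8-treated cells, with log2 fold changes of 2.89 (2.22 to 3.76) at day 0, 0.51 at day 3 and 0.50 at day 9.

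Gdf15, a stress hormone that acts on the hindbrain, was lower with FGF8 on the later days. It was at 11.8, 181 and 435 normalized counts in untreated and 87.1, 114 and 363 in FGF8-treated cells. The log2 fold change was 2.79 (1.83 to 4.16) at day 0, where the untreated library held 8 counts and the interval is the widest of the group, and it was -0.65 (-0.99 to -0.32) at day 3 and -0.26 (-0.44 to -0.08) at day 9. In both arms the level was higher on each later day.

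Among the amino acid enzymes 7 of 8 passed 2-fold at day 0 (median 2.08), and Cbs was the exception. Asns (chr6:7671667-7728461), asparagine synthetase, was at 1160.4, 2979 and 4617 normalized counts in untreated and 10988, 5081 and 7092 in FGF8-treated cells. It was 9.46-fold higher at day 0 (log2 3.24, 3.14 to 3.35), then by log2 0.77 (0.70 to 0.84) and 0.62 (0.57 to 0.67), and its FGF8 library exceeded the untreated library on each day. Cth, cystathionine gamma-lyase, the last step from methionine to cysteine, was at 231, 843 and 435 normalized counts without FGF8 and 4204, 1597 and 776 with it. Only Chac1 and Trib3 had a larger fold change at day 0, and Cth was 18.2-fold higher (log2 4.18, 3.96 to 4.43), with log2 0.92 (0.80 to 1.05) and 0.83 (0.69 to 0.98) later. Cbs, which makes the cystathionine that Cth cleaves, was at 29.4, 202 and 37.6 normalized counts in untreated and 17.9, 139 and 13.8 in FGF8-treated cells. It was below the untreated library on all 3 days, with log2 fold changes of -0.68 (-1.81 to 0.34), -0.54 (-0.85 to -0.23) and -1.38 (-2.33 to -0.63), with few counts at day 0 and day 9, and a stricter filter of 100 normalized counts on average left it out at those days.

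The serine pathway makes serine from a glycolytic intermediate in 3 steps, by Phgdh, Psat1 and Psph in that order. Phgdh was at 1075, 3492 and 2246 normalized counts in untreated and 4176, 5153 and 4238 in FGF8-treated cells, log2 fold changes of 1.96, 0.56 and 0.92. Psat1 was at 4079, 4806 and 4172 normalized counts in untreated and 17598, 7704 and 6309 in FGF8-treated cells, log2 fold changes of 2.11, 0.68 and 0.60. Psph was at 707, 1298 and 1221 normalized counts in untreated and 2932, 2067 and 1372 in FGF8-treated cells, log2 fold changes of 2.05, 0.67 and 0.17. The 3 enzymes were about 4-fold higher together at day 0 (3.88-, 4.31- and 4.15-fold), whereas at day 9 Phgdh was still at 1.89-fold and Psph at 1.12-fold. Their counting intervals at day 9 on the log2 scale are 0.85 to 0.98 and 0.07 to 0.27. These leave out the variation between cultures, and a difference between the genes was not tested. Gpt2, the mitochondrial alanine transaminase, was at 508, 979 and 908 normalized counts in untreated and 5140.1, 1209 and 1057 in FGF8-treated cells. Its 10.1-fold higher level at day 0 (log2 3.34, 3.18 to 3.50) stood apart from the other 5 libraries, which lay between 508 and 1209, and the later log2 fold changes were 0.31 and 0.22. Pck2, the mitochondrial form of phosphoenolpyruvate carboxykinase, was at 2350.2, 2372 and 3115 normalized counts in untreated and 7771, 3576 and 4531 in FGF8-treated cells, log2 fold changes of 1.72, 0.59 and 0.54.

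The 4 mitochondrial one-carbon enzymes were all higher at day 0, by 5.43-fold or more, and had the highest median of the groups (2.67). They pass the carbon that serine gives up to folate and release it as formate or carbon dioxide. Shmt2, which takes the carbon from serine, was at 1316, 3615 and 3753 normalized counts in untreated and 9453, 5684 and 7390.5 in FGF8-treated cells, 7.18-fold higher at day 0 (log2 2.84, 2.74 to 2.95). Mthfd2 (chr6:83282673-83302890), the next enzyme, was at 1059, 2814 and 3253 normalized counts in untreated and 11929, 5173 and 6071 in FGF8-treated cells, 11.3-fold higher at day 0 (log2 3.49, 3.38 to 3.60). Both were still higher with FGF8 at day 3 (log2 0.65 and 0.88) and at day 9 (0.98 and 0.90). Mthfd1l, which yields formate, was at 729, 524 and 933 normalized counts without FGF8 and 3961, 901 and 1149.5 with it, log2 fold changes of 2.44, 0.78 and 0.30. Aldh1l2, which yields carbon dioxide and NADPH, was at 3671, 2134 and 5823 normalized counts without and 20724, 1910.0 and 7500.2 with FGF8. At day 0 it was 5.64-fold above the untreated library (log2 2.50, 2.44 to 2.56), but at day 3 it was slightly below it (log2 -0.16, -0.25 to -0.07) and at day 9 slightly above (log2 0.37, 0.32 to 0.41).

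**Figure D2:**
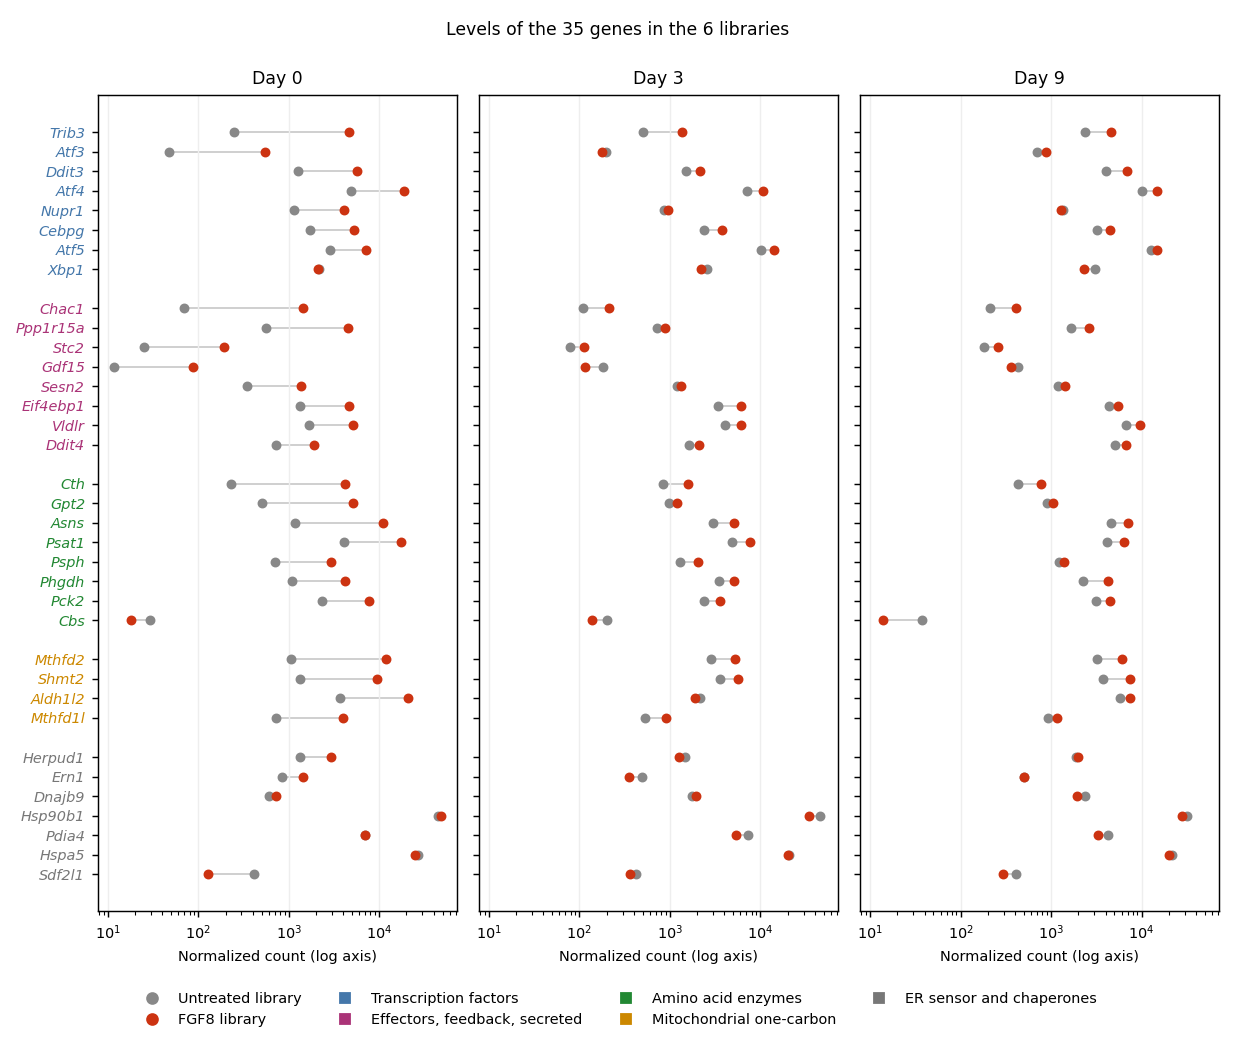
Normalized counts of the 35 genes (horizontal log axis) in the untreated (grey) and the FGF8 library (red) of day 0, 3 and 9, 1 library per point, with a line joining the 2 libraries of a day and gene names coloured by role. At day 0 the red points of the first 4 groups lie to the right of the grey ones except for Xbp1 and Cbs, and at day 3 and at day 9 34 of the 35 pairs lie within 2-fold.

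The ER group had a median log2 fold change close to 0 at day 0. Of its 7 genes, 1 was 2-fold higher (Herpud1) and 1 was 2-fold lower (Sdf2l1) at day 0, none in either direction at day 3 and day 9, and the medians were 0.09, -0.24 and -0.17. Hspa5 (chr2:34661982-34668880), which encodes BiP, the main ER chaperone and the common readout of ER stress, was at 26464, 20945 and 21680.4 normalized counts in untreated and 25098, 19913 and 19853 in FGF8-treated cells. Its log2 fold changes were -0.08 (-0.11 to -0.05), -0.07 (-0.10 to -0.05) and -0.13 (-0.15 to -0.10), so that the 6 libraries spanned a narrow range at a high level. Herpud1, a membrane protein of ER-associated degradation, was at 1325, 1451 and 1862 normalized counts without FGF8 and 2906, 1246 and 2001 with it. The 2.19-fold higher level at day 0 (log2 1.13, 1.02 to 1.25) was not seen at day 3 (log2 -0.22, -0.33 to -0.11) or day 9 (log2 0.10, 0.02 to 0.18). The Herpud1 promoter holds both the C/EBP-ATF letters and the second ER stress element shown above, and a part of either in this difference was not tested. Sdf2l1, a cofactor of BiP, was at 414, 423 and 408 normalized counts in untreated and 127, 359 and 293 in FGF8-treated cells. It was 3.25-fold lower at day 0 (log2 -1.70, -2.05 to -1.37), where the FGF8 library was the lowest of the 6, and then at log2 -0.24 and -0.47.

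The other ER genes stayed within 2-fold. Ern1, which encodes the sensor IRE1, had log2 fold changes of 0.77 (0.63 to 0.92), -0.44 (-0.64 to -0.25) and -0.01 (-0.16 to 0.15). Hsp90b1 (GRP94), the ER form of HSP90, had log2 0.09, -0.39 and -0.17, and Pdia4, a disulfide isomerase, had log2 -0.02, -0.43 and -0.36. Dnajb9 (ERdj4), a cochaperone that is a known target of XBP1, had log2 0.26, 0.15 and -0.27. Of the 7 genes, 6 were below 0 at day 3 and 6 at day 9, against 5738 of 12892 and 5330 of 13070 of all genes tested. Per kilobase of exon, the only scale on which levels of different genes are set side by side here, Hsp90b1, Hspa5, Atf4 and Atf5 were the 4 highest of the 35 genes in all 6 libraries. In the FGF8 library of day 0 Atf4 came first with 7985 normalized counts per kilobase, before Hsp90b1 with 7815 and Hspa5 with 4519, whereas in the untreated library of day 0 it came after both with 2078, against 7333 for Hsp90b1 and 4765 for Hspa5.

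Set against the promoter search, the 8 genes with the C/EBP-ATF letters were all 2-fold higher at day 0 (1.13 to 4.37, median 2.53), and so were 16 of the 24 genes without them. The genes without them include every ER gene but Herpud1, and none of those ER genes was 2-fold higher. All these genes were chosen as response genes with earlier results known, so their counts do not bear on what the letters do. Over all genes tested that had a promoter, 55 of 278 with the letters (19.8%) and 660 of 9799 without (6.74%) were 2-fold higher at day 0. These counts include the 8 and the 16 response genes named above. In the other direction, 36 of the 278 and 971 of the 9799 were 2-fold lower, which is also a larger share with the letters. The median log2 fold changes were 0.14 with the letters and 0.06 without. Neither Hspa5 nor Hsp90b1, the genes with the first ER stress element, was 2-fold higher at day 0. These are counts, and no test was made of them.

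The days were then compared within each arm. In untreated cells 18 of the 35 genes exceeded their day 0 level by 2-fold or more at day 9 and 0 fell short of it by as much (all genes 23.7% higher and 19.5% lower), with a median of 1.02 against -0.03 for all genes. In FGF8-treated cells 5 were higher and 10 lower of the 34 genes that passed the filter (all genes 26.1% and 22.6%), with a median of -0.35 against -0.03. Cbs is the gene under the filter there. Scaling to total counts gave 16 higher and 0 lower in untreated cells and 3 higher and 14 lower in FGF8-treated cells, while the median of all genes moved to -0.22 and -0.31. The day 0 libraries enter these values and those between treatments, so they are not separate evidence. All 8 effectors were 2-fold higher at day 9 in untreated cells, from log2 1.55 for Ppp1r15a to 5.10 for Gdf15, and Atf3 (3.86) and Trib3 (3.24) followed. In the FGF8 arm the 10 lower genes were, in log2, Cth (-2.44), Gpt2 (-2.28), Chac1 (-1.81), Mthfd1l (-1.78), Nupr1 (-1.67), Ern1 (-1.52), Psat1 (-1.48), Aldh1l2 (-1.47), Psph (-1.09) and Pdia4 (-1.07). The 5 higher ones were, in log2, Gdf15 (2.05), Ddit4 (1.85), Dnajb9 (1.43), Sdf2l1 (1.20) and Atf5 (1.05). For 26 of the 35 genes the FGF8 library of day 0 was above the untreated library of day 9. This was not counted over all genes, so it is not known whether it sets the 35 genes apart.

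**Figure D3:**
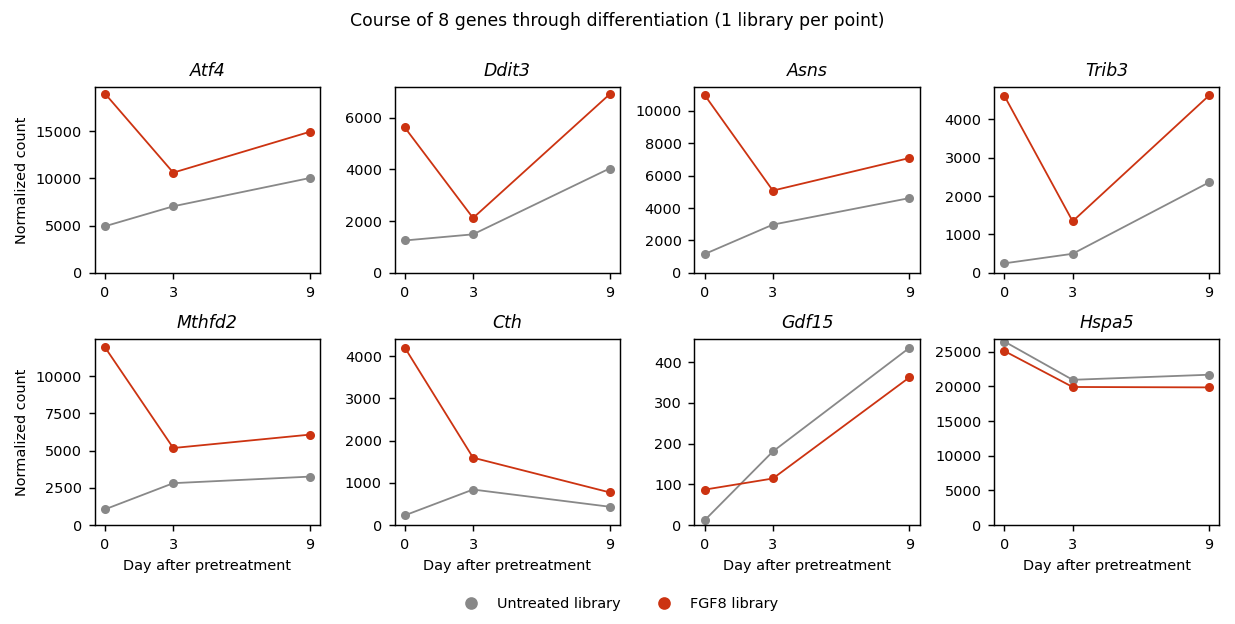
Normalized counts (vertical axis, starting at 0) of 8 genes at day 0, 3 and 9 in untreated (grey) and FGF8-treated cells (red), 1 library per point. The FGF8 line starts far above the untreated line in 6 of the genes (Atf4, Ddit3, Asns, Trib3, Mthfd2 and Cth) and lies nearer to it at day 3, while Gdf15 is higher on each later day in both arms and the lines of Hspa5 lie close together.

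The design allows tests across days or arms only, with the days, or the arms, in the place of replicates and 2 residual degrees of freedom. For FGF8 over the 3 days, the quasi-likelihood test of edgeR with Benjamini-Hochberg adjustment over 13868 genes called 0 of the 35 genes in either direction, against 0.0144% of all genes higher and 1.08% lower. At an unadjusted p under 0.05 there were 13, of which 12 were higher, and 23.6% of all genes were under it too. The Wald test of DESeq2 called 14 of the 35 higher and 0 lower (all genes 3.6% and 9.1%). Phgdh had the smallest p, with log2 change 1.11, SE 0.302, adjusted p = 0.137 (0.00586 to 0.9998 over the alternatives) and the FGF8 library higher on 3 of 3 days. Atf4 had log2 change 1.00, SE 0.333, adjusted p = 0.175 (0.0216 to 0.9998 over the alternatives), also higher on 3 of 3 days. This fit treats a difference in the response from day to day as error. Without the 2 libraries of day 0 the test called 11 of the genes higher and 0 lower (all genes 3.96% and 11.6%). Without those of day 3 or of day 9 it called no gene at all in either direction, so the 0 of the 35 there says nothing about them.

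For the days, the edgeR quasi-likelihood test (p adjusted by Benjamini-Hochberg) called 3 of the 35 genes higher and 1 lower at day 3 than at day 0 (all genes 26.4% and 19.5%), 5 higher and 2 lower at day 9 than at day 0 (29.2% and 24.6%), and 0 between day 9 and day 3 (0.0577% and 0.00721%), where 4 had an unadjusted p under 0.05 and DESeq2 called 3 higher and 2 lower (6.07% and 3.35%). Dnajb9 rose in both arms by day 3 (log2 change 1.52, SE 0.186, adjusted p = 0.00584) and stayed up at day 9 (log2 change 1.72, SE 0.187, adjusted p = 0.00341), and Atf5 did likewise (log2 change 1.42, SE 0.319, adjusted p = 0.0224 and log2 change 1.59, SE 0.321, adjusted p = 0.0139). Cbs rose by day 3 (log2 change 2.92, SE 0.405, adjusted p = 0.00739). Ern1 fell by day 3 (log2 change -1.38, SE 0.338, adjusted p = 0.0278) and was still lower at day 9 (log2 change -1.15, SE 0.332, adjusted p = 0.0381). At day 9 Ddit4 (log2 change 2.33, SE 0.312, adjusted p = 0.00513), Vldlr (log2 change 1.43, SE 0.330, adjusted p = 0.0201) and Gdf15 (log2 change 3.14, SE 0.898, adjusted p = 0.0368) had risen, and Pdia4 had fallen (log2 change -0.88, SE 0.187, adjusted p = 0.0158). Each of these moved the same way in 2 of 2 arms. Over the alternatives the adjusted p stayed under 0.05 for Dnajb9 at day 9 (1.8e-09 to 0.0328) and for Ddit4 (3.58e-10 to 0.0331) only. The counts rest on single libraries: without the FGF8 library of day 0 the test called 18 of the 35 genes higher and 2 lower at day 3 (all genes 25.3% and 18.9%) and 23 higher and 1 lower at day 9 (28.3% and 23.3%). Without the untreated library of day 0 it called 4 higher and 19 lower at day 3 (30.1% and 25.2%) and 6 higher and 15 lower at day 9 (32.2% and 28.6%). Between these 2 omissions 7 genes at day 3 (Asns, Atf3, Cth, Gpt2, Mthfd2, Psph and Trib3) and 8 at day 9 (Aldh1l2, Asns, Chac1, Cth, Gpt2, Mthfd2, Ppp1r15a and Psph) were called in opposite directions, none of which was called with all 6 libraries. Opposite calls were not counted over all genes, so it is not known whether they set the 35 genes apart. Between day 9 and day 3, 12 were called higher and 3 lower without the FGF8 library of day 0 (10.5% and 9.8%), and as many without the untreated one (10.6% and 9.98%). In that comparison the day 0 library that is left is fitted by its own day term. Both omissions rest on the same libraries of day 3 and day 9, so they are not separate evidence. Without the FGF8 library of day 3, 0 were called at day 3 (6.22% and 1.83%), without the untreated library of day 9, 2 higher and 0 lower at day 9 (13.6% and 6.98%), and without the FGF8 library of day 9, 3 higher and 0 lower (13.5% and 5.14%).

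Genes of the same pathways outside the 35 were described from lists, ordered from the start of the response to its targets. The shares of all genes 2-fold higher and lower were 7.27% and 10.8% at day 0 and 3.8% and 12.1% at day 3. At day 9 they were 1.12% and 8.74%. A count near these shares is no trait of a list. Of 17 genes for eIF2, its kinases and its regulators, 2 were 2-fold higher and 1 lower at day 0, with a median of 0.19, and none passed 2-fold later. Eif2b3 and Eif2s2, subunits of the exchange factor of eIF2 and of eIF2 itself, were higher (log2 1.26 and 1.13), Eif2s1 had log2 0.83, and Eif2ak2, the kinase PKR that senses double-stranded RNA, was lower, with 15593 normalized counts without FGF8 and 6079.8 with it (log2 -1.36, -1.41 to -1.31). Of the 20 cytosolic aminoacyl-tRNA synthetases, the enzymes that load amino acids onto tRNA and well known targets of ATF4, 14 were 2-fold higher at day 0 and 0 later. All 20 were above 0 on each of the 3 days, with medians of 1.51, 0.45 and 0.33. Of all genes tested, 6849 of 12657, 7154 of 12892 and 7740 of 13070 were above 0 on these days. Lars led with 3822 normalized counts in untreated and 16644 in FGF8-treated cells at day 0 (log2 2.12, 2.06 to 2.18), followed by Iars (2.06), Nars (2.00) and Sars (1.91).

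Of 30 other ATF4-responsive genes, 16 were 2-fold higher and 0 lower at day 0 (median 1.28), 2 higher and 2 lower at day 3 and 1 higher at day 9. Slc7a11, the cystine importer, was at 120.4, 616 and 598 normalized counts in untreated and 2870.3, 859 and 767 in FGF8-treated cells, with log2 4.56 (4.26 to 4.91) at day 0, an interval that overlaps that of Chac1. Adm2, a secreted peptide, was at 16.2, 10.2 and 377 normalized counts without and 287, 82.1 and 1013 with FGF8. It kept a fold change above 2-fold on all 3 days, log2 4.07, 2.89 and 1.42, with few counts in the untreated libraries of day 0 and day 3. Slc7a1, a transporter of cationic amino acids, had log2 2.63 at day 0, and Gadd45a, a growth arrest protein, had log2 3.03, -0.10 and 0.69. The cytosolic folate and glycine cleavage genes counted 0 of 17 higher and 2 lower at day 0 (all genes 7.27% and 10.8%), with a median of 0.39. Shmt1, the cytosolic form of Shmt2, had log2 0.99, 0.90 and 0.70, Aldh1l1, the cytosolic form of Aldh1l2, had log2 -1.58, 0.24 and -1.08, Dld had log2 0.75, 0.95 and 0.46, and Gldc, the glycine decarboxylase, had log2 -0.63, -1.86 and -1.58.

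The ER side was again close to 0. Of the 20 other ER chaperones and folding enzymes tested, 0 were 2-fold higher on any day and 1 was lower on each. The medians were -0.21, -0.36 and -0.20, and 16, 16 and 17 of the 20 were below 0. Of all genes tested, 5808 of 12657, 5738 of 12892 and 5330 of 13070 were below 0. Calr, the lectin chaperone calreticulin, was at 25126, 42272 and 23476 normalized counts in untreated and 14341, 26602 and 16529.7 in FGF8-treated cells (log2 -0.81, -0.67 and -0.51). Fkbp14 was the gene past 2-fold at day 0 (log2 -1.01) and Pdia5 at day 3 and day 9 (log2 -1.23 and -1.59), and Txndc5 had log2 -0.86 at day 9. Of 30 genes for ER-associated degradation, translocation and the sensors of the unfolded protein response, 2 were 2-fold higher at day 0 (all genes 7.27%). They were Atf6 (log2 1.26) and Wfs1 (1.02), and the median of the 30 was -0.01. Os9, a lectin of the degradation pathway, was lower at day 3 (log2 -1.23). Creb3l1, a membrane-bound transcription factor of the ER, was lower on all 3 days (log2 -0.97, -1.05 and -1.18) and was the 1 gene of the 7 lists that the edgeR test called for FGF8 over the 3 days (log2 change -1.09, SE 0.128, adjusted p = 0.0472, lower on 3 of 3 days). Of all genes tested, 1.08% were called lower, so 1 such call is no trait of the lists. Without the day block, or without the libraries of day 3 or of day 9, the test called no gene at all, Creb3l1 included. Of 12 mitochondrial chaperones and proteases, 4 were 2-fold higher at day 0 and 1 at day 3, with medians of 0.56, 0.80 and 0.37. Hspa9, the mitochondrial HSP70, was at 9458, 37771 and 65204 normalized counts in untreated and 37952, 73251 and 100166 in FGF8-treated cells (log2 2.00, 0.96 and 0.62). Lonp1 had log2 1.54, Dnaja3 1.11 and Hspd1 1.15 at day 0, and Hspd1 was also the 1 gene past 2-fold at day 3 (1.09).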

How the data were processed

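Bulk RNA sequencing of 6 libraries, 1 per combination of treatment and day, was used. The authors prepared stranded mRNA libraries, trimmed reads with TrimGalore, aligned them to GRCm39 (mm39 in the submitters' processing notes) with HISAT2, counted reads per gene with featureCounts and deposited unnormalized counts. Tool versions, annotation, strand setting and the treatment of multiply mapped reads are not given in the sources used here. Groups were taken from the sample labels.

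The 35 genes, their 5 groups and the 7 other lists were chosen with earlier results of these data known. Every one of the 35 is accounted for. Values in all libraries are given for those with a 2-fold change on any day and for Atf4, Ddit3, Asns, Xbp1 and Hspa5. Of each other list, up to 4 genes are named, those with the largest fold change on any day where the pair averaged 100 normalized counts or more. Ucp1, Adipoq, Xist, Ddx3y and single markers are given only as checks and were, apart from Ucp1 and Adipoq, picked after their values were seen.

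Counts were divided by DESeq2 (1.42.0) median-of-ratios size factors over the 6 libraries. Calls used a pseudocount of 1, 2-fold and a mean of 20 normalized counts. Depth (16403254 to 38551551 counts) sets the counting intervals, which are wide for genes with few counts. The test was edgeR (4.0.16) with an additive fit of day and treatment, TMM, filterByExpr and Benjamini-Hochberg adjustment over 13868 genes (adjusted p under 0.05). Each SE is the log2 change divided by the root of its F value. In simulated libraries with 4-fold changes set in 200 genes, the FGF8 test called 198 of them and 14 unchanged genes of 14263 tested, the test of day 3 against day 0 called 192 and 5 of 14277, and the fold rule at day 0 found 195 of 195 and 33 unchanged genes of 13254. For the tests, a simulated gene had the same mean in all libraries but for its change, which was equal on all days or in both arms. The spread between libraries was set and not taken from the data. The real response to FGF8 differed between days, so these figures do not give the share of real changes that the tests find.

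Coordinates are those of GENCODE M39 (GRCm39), in which 23897 symbols and all 35 genes were found. Promoters came from RefSeq GRCm38.p6, with no conversion between builds. Alternatives were TMM, total counts or size factors within a pair, pseudocounts of 0.5 and 5, a mean of 100 or no filter, 1.5-fold, DESeq2's Wald test, RLE size factors in edgeR, no filter in the fit, no day or treatment block, and leaving out each day or library. Where an omission leaves 1 library at a day, it is assumed to vary like the others. Work was done in R 4.3.3 and Python 3.11.15 with scipy 1.17.1, pandas 2.3.3 and matplotlib 3.10.9.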

Additional observations from a re-analysis of the deposited data

Results flagged for a closer look

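In 6 of the 35 genes the log2 fold change between FGF8-treated and untreated cells had opposite directions on different days, with a counting interval that left out 0 on each side. This was not counted over all genes, so it is not known whether it sets the 35 genes apart. Aldh1l2 was higher with FGF8 at day 0 (2.50) and day 9 (0.37) and lower at day 3 (-0.16). Gdf15 was higher at day 0 (2.79) but lower with FGF8 on both later days (-0.65 at day 3, -0.26 at day 9). Herpud1 was higher at day 0 (1.13) and day 9 (0.10) and lower at day 3 (-0.22). In 3 genes all the values lay within 2-fold. For Ern1 FGF8 gave the higher level at day 0 (0.77) but the lower one at day 3 (-0.44). For Dnajb9 the values were 0.26 at day 0, 0.15 at day 3 and -0.27 at day 9. For Hsp90b1 they were 0.092 at day 0, -0.39 at day 3 and -0.17 at day 9. With 1 library per condition the difference between the days was not tested. Groups hold 1 library each, so no library could be tested against others of its group.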

How the results depend on the processing

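Leaving out 1 or the other library of day 0 gave opposite calls for 7 of the 35 genes at day 3 against day 0 and for 8 at day 9 against day 0, as named in the text. With a 1.5-fold rule the counts of the 35 genes were 2 lower at day 0 (all genes 17.8%), 14 higher and 1 lower at day 3 (15.6% and 19.8%) and 10 higher at day 9 (5.95%). TMM gave 3 higher at day 9 (1.26%), and a mean of at least 100 normalized counts gave 0 lower there, since Cbs then falls under the filter. The Wald test of DESeq2 called 14 genes higher for FGF8 (all genes 3.6%), 4 lower at day 3 against day 0 (23.6%), and 3 higher and 2 lower at day 9 against day 3 (6.07% and 3.35%). Without a filter on low counts edgeR called 2 lower at day 3 against day 0 (13.7%) and 1 lower at day 9 against day 3 (0.348%), and without the treatment block 3 higher at day 9 against day 0 (23.1%). Leaving out a day gave 0 to 11 genes higher for FGF8. Leaving out a library gave 0 to 18 higher and 0 to 19 lower at day 3 against day 0, 2 to 23 higher and 0 to 15 lower at day 9 against day 0, and 0 to 12 higher and 0 to 3 lower at day 9 against day 3, with the extremes and the shares of all genes beside the libraries named in the text. Opposite calls were not counted over all genes. The causes were not tested.

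The labels carry no replicate numbers to block on. The fit of day and treatment compares the 2 libraries within each day, and without its day block it called 0 genes of all those tested for FGF8. The main limits are the single library per condition, the 2 residual degrees of freedom of the tests, and the low counts of Cbs, Gdf15, Stc2 and Atf3 at day 0.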
